A study of Mus musculus with 51 samples.

Results

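Integrins are the receptors through which blood cells hold on to matrix and to other cells, and the genes described here are the integrin chains together with the immunoglobulin-type, hyaluronan and junction adhesion molecules that act beside them. They were taken by name: every gene whose symbol starts with Itga or Itgb followed by a number or by d, e, l, m, v or x (without Itga2b and the integrin-binding protein genes), plus Icam1, Icam2, Icam4, Vcam1, Pecam1, Cd44, Cd47, Jam2, Jam3, F11r, Alcam and Mcam. This gave 36 genes of the 18193 measured, of which 15 were alpha chains, 9 beta chains and 12 other adhesion molecules. They were measured on 51 Affymetrix arrays in 4 populations sorted from mouse bone marrow: haematopoietic stem cells (HSC), the source of every blood lineage, and the progenitors called common lymphoid (CLP), common myeloid (CMP) and granulocyte-macrophage (GMP). Each population came from Mll-AF9 knock-in mice, which carry a leukaemia fusion of Mll (Kmt2a) with Af9 (Mllt3), and from wild-type mice. After repeat runs were averaged GMP and CMP each had 4 Mll-AF9 and 5 wild-type replicates, CLP had 7 Mll-AF9 and 8 wild-type replicates, and HSC had 5 of each genotype. The sources used here do not give strain, age, sex or zygosity, nor do they say whether replicates were separate mice. P-values therefore rest on a spread between samples that may be technical. The samples are bulk populations, so fewer cells of a type and less RNA per cell cannot be told apart.

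An integrin is a pair of 1 alpha and 1 beta chain. The Itga4 chain pairs with Itgb1 (VLA-4, the receptor for Vcam1 and fibronectin) or with Itgb7, and Itgal pairs with Itgb2 (LFA-1, the receptor for the Icam proteins). In marrow VLA-4 and Vcam1 hold stem and progenitor cells in their niche, Cd44 binds hyaluronan, and Cd47 tells phagocytes not to engulf the cell that carries it.

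The promoters of the 6 genes with the widest range over wild-type populations are shown, because the results on populations turn on them. They are RefSeq windows of 300 bases on GRCm38.p6, from 250 bases before to 50 bases after a gene start, written 5′ to 3′ on the gene's strand. They lie at chr16:52453032-52453331 (minus strand, Alcam), chr2:102901616-102901915 (minus, Cd44), chr9:21015690-21015989 (plus, Icam1), chr16:33829415-33829714 (plus, Itgb5), chr9:21029182-21029481 (plus, Icam4) and chr13:115101915-115102214 (minus, Itga1). Capitals mark matches to motifs searched on both strands.
Alcam: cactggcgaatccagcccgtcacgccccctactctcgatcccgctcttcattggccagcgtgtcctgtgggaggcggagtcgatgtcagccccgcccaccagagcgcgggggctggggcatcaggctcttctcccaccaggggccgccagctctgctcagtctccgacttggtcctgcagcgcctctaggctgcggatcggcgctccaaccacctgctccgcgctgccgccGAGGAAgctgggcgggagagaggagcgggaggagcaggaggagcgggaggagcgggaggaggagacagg
Cd44: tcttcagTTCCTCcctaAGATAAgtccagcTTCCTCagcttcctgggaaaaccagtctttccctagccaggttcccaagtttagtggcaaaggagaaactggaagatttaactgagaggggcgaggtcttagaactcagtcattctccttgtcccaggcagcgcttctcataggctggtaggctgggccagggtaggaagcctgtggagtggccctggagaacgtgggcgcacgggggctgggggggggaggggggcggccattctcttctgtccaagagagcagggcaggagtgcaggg
Icam4: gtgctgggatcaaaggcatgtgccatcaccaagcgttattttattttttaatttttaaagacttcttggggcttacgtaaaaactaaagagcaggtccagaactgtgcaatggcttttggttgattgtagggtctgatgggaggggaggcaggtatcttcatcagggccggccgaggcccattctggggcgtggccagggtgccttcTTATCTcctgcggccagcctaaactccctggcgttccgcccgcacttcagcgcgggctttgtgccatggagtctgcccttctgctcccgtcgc
Icam1: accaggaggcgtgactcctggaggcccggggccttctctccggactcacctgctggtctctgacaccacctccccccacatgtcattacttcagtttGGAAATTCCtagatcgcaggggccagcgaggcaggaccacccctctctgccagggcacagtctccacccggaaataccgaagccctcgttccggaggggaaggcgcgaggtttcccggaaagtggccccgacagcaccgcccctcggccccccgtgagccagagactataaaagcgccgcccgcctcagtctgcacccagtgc
Itga1: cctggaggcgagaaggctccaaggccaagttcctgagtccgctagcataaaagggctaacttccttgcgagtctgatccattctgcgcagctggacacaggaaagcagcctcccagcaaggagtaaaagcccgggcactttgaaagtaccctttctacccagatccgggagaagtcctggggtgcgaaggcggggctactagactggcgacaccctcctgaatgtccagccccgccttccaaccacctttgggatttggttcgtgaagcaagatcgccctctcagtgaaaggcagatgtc
Itgb5: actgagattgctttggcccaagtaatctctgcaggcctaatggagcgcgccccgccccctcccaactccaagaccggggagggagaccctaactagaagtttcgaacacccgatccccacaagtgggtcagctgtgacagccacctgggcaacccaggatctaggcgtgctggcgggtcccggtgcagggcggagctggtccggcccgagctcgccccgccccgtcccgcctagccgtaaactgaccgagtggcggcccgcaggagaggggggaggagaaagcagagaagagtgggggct

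The letters searched were AGATAA for GATA factors, GAGGAA for the myeloid factor PU.1 and TGTGGT for RUNX factors. The others were CCACACCC for KLF factors, TGATTNAT for Hox and Meis together and GGAATTTCC for NF-kB. Alcam held 1 PU.1 match, Cd44 1 GATA and 2 PU.1 matches that did not overlap, Icam1 1 NF-kB match and Icam4 1 GATA match, while these letters were not in the Itgb5 and Itga1 windows. Of the 32851 windows of all genes, 28.3% held a PU.1 match, 11.2% a GATA match and 0.317% an NF-kB match. Windows were at hand for 24 of the 36 genes, 27 windows in all, and of these 12 held PU.1, 3 GATA (Cd44, Icam4 and Itgax), 3 RUNX (Itga3, Itga4 and Itgax), 1 KLF (Itga4), 1 Hox-Meis (Itga9) and 1 NF-kB. RUNX matches stood in 16.8%, KLF in 3.56% and Hox-Meis in 3.22% of all windows. A match is a description of the letters.

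Levels are given as log2 of the RMA intensity, with background set at 4.615, the 95th percentile of the means of 115 genes of smell, taste and vomeronasal receptors and keratin-associated proteins. By group mean, each marker list was highest in the population of its name. The GMP list (such as Mpo) averaged 12.7 in GMP of both genotypes. The CMP list averaged 10.5 in CMP of both, but its genes (Klf1, Gata1, Car1, Tfrc and Epor) are largely erythroid. It thus does not by itself show a common myeloid identity. The CLP list (such as Il7r) averaged 8.36 in Mll-AF9 CLP and 9.25 in wild-type CLP. Of its genes, Dntt (11.59) and Flt3 (9.86) were also high in wild-type HSC, against 12.30 and 10.05 in wild-type CLP. The HSC list (such as Procr) averaged 7.30 in Mll-AF9 HSC and 6.99 in wild-type HSC, but also 6.43 and 6.71 in Mll-AF9 and wild-type CLP. The source name of 8 samples titled CLP, all 7 Mll-AF9 replicates and wild-type replicate 1, was that of CMP, and their titles were followed. Y-linked genes were below background in every Mll-AF9 replicate, and among wild-type replicates they were above 6 in 3 of 5 GMP and 3 of 5 CMP, in 6 of 8 CLP and in 2 of 5 HSC. The wild-type groups thus hold replicates with and without this signal, and the Mll-AF9 groups none with it. CMP values carried more decimals in the deposited table, so those arrays may have gone through a separate run of processing, and every comparison of CMP with another population carries this limit. Wild-type CLP replicates 6 and 7 stood apart, with monocyte and macrophage markers at a mean of 5.87 and 6.26, against 4.38 to 4.82 in Mll-AF9 CLP and 4.34 to 4.91 in the other wild-type CLP. Their mast cell and basophil markers averaged 9.86 and 10.41, against 7.09 to 9.13 in Mll-AF9 CLP and 7.84 to 8.96 in the other wild-type CLP, and replicate 6 had the highest neutrophil markers of wild-type CLP (9.79).

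Of the 36 genes, 23 were above background in at least 1 group: 9 alpha chains, 6 beta chains and 8 other molecules. In Mll-AF9 and wild-type cells alike 22 were above background in GMP, 19 in CMP and 21 in CLP, and in HSC there were 20 in Mll-AF9 and 19 in wild-type cells. A set of 17 was above background in all 8 groups. The 13 below background in every group were Itga2, Itga7, Itga8, Itgae, Itgam, Itgax, Itgb4, Itgb6, Itgb8, Jam2, Jam3, Mcam and Pecam1. Itgam and Itgax are the alpha chains of Mac-1 and p150,95, the Itgb2 integrins of mature myeloid cells.

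**Figure D1:**
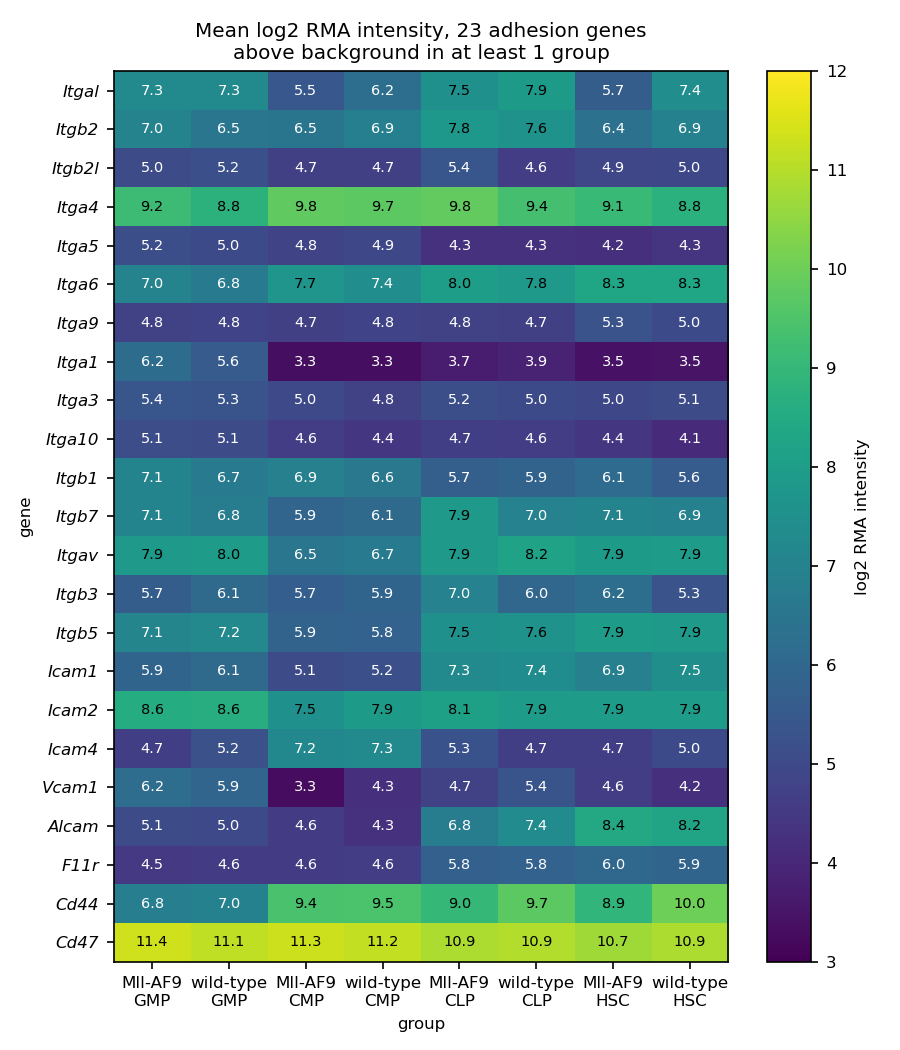
Heat map of the mean level (log2 RMA intensity, colour and printed value) of the 23 adhesion genes above background in at least 1 group (rows) in the 8 groups (columns), Mll-AF9 left of wild type in each population. Alcam is highest in the 2 HSC columns, Icam4 in the 2 CMP columns and Itga1 in the 2 GMP columns.

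Adhesion genes were called between GMP, CMP and HSC in both genotypes. GMP stood out by Itga1 and, on the brightest probe set of the gene, by low Cd44, whose direction depends on the probe set. CMP stood out by Icam4 and by low Icam1 and Itgb5. Alcam was low in CMP and, on its brightest probe set, in GMP as well. The size and the call of the Alcam difference between GMP and HSC depend on the probe set. Genes were called at a limma Benjamini-Hochberg adjusted p below 0.05 over all 18193 genes, in 1 model of the 8 groups. Against HSC, 8 genes were higher and 7 lower in Mll-AF9 GMP, where 20.4% and 12.5% of all genes were called, and 5 were higher and 6 lower in wild-type GMP, where 24.6% and 13.5% were. In CMP against HSC, 2 were higher and 7 lower in Mll-AF9 cells (10.7% and 10.2% of all genes), and 3 were higher and 8 lower in wild-type cells (11.7% and 10.7%). In GMP against CMP, 8 were higher and 2 lower in Mll-AF9 cells (13.6% and 8.62% of all genes), and 9 were higher and 4 lower in wild-type cells (20.3% and 11.5%).

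The lower calls in CMP against HSC made up 19.4% of the 36 genes in Mll-AF9 and 22.2% in wild-type cells, beside the 10.2% and 10.7% of all genes given above. The median difference of the 36 genes in that comparison was -0.13 in Mll-AF9 and -0.08 in wild-type cells, against -0.01 and 0.01 over all genes. In GMP against CMP it was 0.30 and 0.27, against 0.10 and 0.13 over all genes. In GMP against HSC it was 0.08 and 0.17, against 0.10 and 0.14. The genotypes called many of the same genes: 10 in GMP against HSC (66.7% of the Mll-AF9 calls and 90.9% of the wild-type ones), 6 in CMP against HSC (66.7% and 54.5%) and 7 in GMP against CMP (70% and 53.8%). None was called in opposite directions. The part shared between the genotypes over all genes was not computed, so this overlap may not be particular to the adhesion genes.

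Among the leukocyte integrins, Itgal (the alpha chain of LFA-1) was low in CMP. It read 7.41, 7.08, 7.44 and 7.20 in Mll-AF9 GMP against 5.82, 5.18, 5.60 and 5.22 in Mll-AF9 CMP, and 7.72, 7.19, 7.22, 7.14 and 7.13 in wild-type GMP against 6.63, 6.71, 5.88, 5.81 and 6.20 in wild-type CMP. Every GMP replicate was above every CMP replicate. The GMP minus CMP difference was 1.83 ± 0.36 in Mll-AF9 (SE, limma adjusted p = 0.000134) and 1.04 ± 0.32 in wild-type cells (adjusted p = 0.0116). Against HSC, Itgal was called higher in Mll-AF9 GMP (1.62 ± 0.34, adjusted p = 0.00024) and lower in wild-type CMP (-1.18 ± 0.32, adjusted p = 0.00519). Its partner Itgb2 averaged 7.04 in Mll-AF9 GMP, 6.51 in Mll-AF9 CMP, 6.54 in wild-type GMP and 6.90 in wild-type CMP and was called in none of these comparisons. Itgam was called higher in GMP in all 4 comparisons of GMP, but at levels below background, as were Itgb4 in wild-type GMP against HSC, Itgax (lower in wild-type CMP against HSC) and Pecam1 (higher in wild-type GMP against CMP), so that no fold is given. The Itgax and Pecam1 calls were lost in several alternatives, among them array centring.

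Of the Itga4, Itga5, Itga9, Itgb1 and Itgb7 group, which binds Vcam1, fibronectin and related ligands, Itgb1 was highest in GMP and CMP. It read 6.96, 6.92, 7.05 and 7.28 in Mll-AF9 GMP, against 6.57, 6.02, 5.82, 6.60 and 5.69 in Mll-AF9 HSC. Wild-type GMP read 4.73, 7.03, 7.40, 7.18 and 7.12, against 5.54, 5.04, 5.94, 5.22 and 6.28 in wild-type HSC. The groups did not overlap but for wild-type GMP replicate 1, the replicate with the largest 3′ minus 5′ difference of control probes in its group (4.70). The GMP minus HSC difference was 0.92 ± 0.36 in Mll-AF9 (adjusted p = 0.0464) and 1.09 ± 0.34 in wild-type cells (adjusted p = 0.0102), and the wild-type CMP minus HSC difference was 1.00 ± 0.34 (adjusted p = 0.0266). The Mll-AF9 GMP call was lost when any 1 of the 4 Mll-AF9 GMP replicates, or 1 of HSC replicates 2, 3 and 5, was left out. The wild-type CMP call was lost without CMP replicate 3 or 4 or HSC replicate 1, 2 or 4, and with the mean of all Itgb1 probe sets both GMP calls were lost; the wild-type one was also lost in a fit of the compared groups only.

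Itga4 was higher in wild-type CMP than in wild-type HSC. It read 9.69, 9.73, 9.98, 9.63 and 9.61 in wild-type CMP, against 9.03, 8.63, 8.66, 8.91 and 8.58 in wild-type HSC. Wild-type GMP read 9.05, 8.65, 8.67, 8.81 and 8.79, below those CMP values. Wild-type CMP did not overlap GMP or HSC, but wild-type CLP ranged from 8.68 to 10.17 and did overlap CMP. The CMP minus HSC difference was 0.97 ± 0.29 (adjusted p = 0.00997) and the GMP minus CMP difference -0.94 ± 0.29 (adjusted p = 0.0101). In Mll-AF9 cells Itga4 averaged 9.17 in GMP, 9.79 in CMP and 9.09 in HSC and was not called. On this probe set GMP were near HSC in wild-type cells too (8.79 and 8.76), and that difference was not called. Another Itga4 probe set gave GMP minus HSC differences of -2.51 in Mll-AF9 and -3.16 in wild-type cells, both called. Its GMP means (3.76 in Mll-AF9 and 3.47 in wild type) were below background. Whether Itga4 falls in GMP against HSC thus depends on the probe set. Itga5, the fibronectin receptor chain, was higher in Mll-AF9 GMP (5.27, 4.86, 5.15 and 5.35) than in Mll-AF9 HSC (4.39, 4.37, 4.56, 3.97 and 3.85). All 5 HSC replicates were below background, so GMP were at least 1.46-fold higher (fitted difference 0.93 ± 0.29, adjusted p = 0.0123). Itgb7 was lower in Mll-AF9 CMP than in HSC (-1.11 ± 0.36, adjusted p = 0.0192) and GMP (GMP minus CMP 1.13 ± 0.38, adjusted p = 0.0248). Both Itgb7 calls were lost without Mll-AF9 CMP replicate 3 or 4; the first also without Mll-AF9 HSC replicate 4, and the second without Mll-AF9 GMP replicate 1, 3 or 4. Itga9 was called lower in Mll-AF9 GMP (-0.56 ± 0.21, adjusted p = 0.0351) and CMP (-0.60 ± 0.21, adjusted p = 0.0343) than in HSC. The GMP call was lost without GMP replicate 4 or HSC replicate 2 or 5, and the CMP call without any 1 CMP replicate or HSC replicate 2 or 5. Wild-type means of Itga5, Itgb7 and Itga9 ran the same way but were not called. Itga5 averaged 5.01 in wild-type GMP and 4.35 in wild-type HSC. Itgb7 averaged 6.12 in wild-type CMP, 6.95 in HSC and 6.80 in GMP. Itga9 averaged 4.82 in wild-type GMP, 4.80 in CMP and 5.02 in HSC.

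Among the collagen and laminin receptors, Itga1 (the alpha chain of a collagen receptor) was above background in GMP of both genotypes and in no other group by its mean. It read 6.16, 5.66, 6.34 and 6.57 in Mll-AF9 GMP and 5.74, 5.61, 5.39, 5.48 and 5.63 in wild-type GMP. CMP and HSC of both genotypes read between 3.10 and 4.28, below background in every replicate. GMP were at least 2.96-fold higher than HSC in Mll-AF9 cells (difference 2.73 ± 0.34, adjusted p = 1.84e-08) and at least 1.94-fold higher in wild-type cells (2.10 ± 0.32, adjusted p = 1.04e-06). For such a bound, given where the mean of the dimmer group was below background, each of its replicates below that level was raised to it. Itga10, another collagen receptor chain, was also higher in GMP than in HSC, where its mean was below background in both genotypes. It read 5.29, 5.30, 4.98 and 4.95 in Mll-AF9 GMP against 4.02, 4.91, 4.15, 3.94 and 5.15 in Mll-AF9 HSC, with 2 HSC replicates above background (fitted difference 0.70 ± 0.20, adjusted p = 0.00671, lost in a fit of the compared groups only). In wild-type cells Itga10 read 5.05, 5.16, 4.98, 5.25 and 4.85 in GMP against 4.20, 4.26, 3.72, 4.09 and 4.24 in HSC, at least 1.36-fold higher (fitted difference 0.96 ± 0.19, adjusted p = 9.76e-05).

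Itga6, the laminin receptor chain that is widely used to mark stem cells, was lower in GMP than in HSC. It read 6.70, 7.29, 7.13 and 7.04 in Mll-AF9 GMP against 8.68, 7.94, 8.32, 8.60 and 8.17 in Mll-AF9 HSC, and 5.77, 6.94, 7.32, 6.80 and 6.96 in wild-type GMP against 8.32, 7.88, 8.44, 8.36 and 8.38 in wild-type HSC. No replicate of GMP overlapped HSC, and the differences were -1.30 ± 0.26 (Mll-AF9, adjusted p = 9.35e-05) and -1.52 ± 0.24 (wild type, adjusted p = 2.76e-06). The other Itga6 probe set gave larger ones, of -3.46 and -2.63, both called. Wild-type CMP were also lower than HSC (-0.87 ± 0.24, adjusted p = 0.00617), and wild-type GMP lower than CMP (-0.65 ± 0.24, adjusted p = 0.0348). The GMP to CMP call was lost without GMP replicate 1 or 4 or CMP replicate 1, 2 or 3. Itga3, another laminin receptor chain, was called higher in GMP than in CMP in wild-type cells (0.56 ± 0.15, adjusted p = 0.00446) and than in HSC in Mll-AF9 cells (0.46 ± 0.16, adjusted p = 0.0269). The Mll-AF9 call was lost without GMP replicate 1, 2 or 3 or HSC replicate 4.

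Of the αv integrins, which bind vitronectin and other RGD ligands, both Itgb5 and Itgav were low in CMP. Itgb5 read 6.01, 6.09, 5.71 and 5.63 in Mll-AF9 CMP against 7.76, 8.22, 7.83, 8.14 and 7.79 in Mll-AF9 HSC, and 6.16, 6.01, 5.80, 5.65 and 5.47 in wild-type CMP against 8.30, 8.04, 7.48, 7.98 and 7.48 in wild-type HSC. The CMP level was 4.26-fold lower in Mll-AF9 (-2.09 ± 0.22, adjusted p = 1.65e-09) and 4.11-fold lower in wild-type cells (-2.04 ± 0.21, adjusted p = 3.62e-10). In GMP the Itgb5 level lay between CMP and HSC, with -0.85 ± 0.22 against HSC in Mll-AF9 (adjusted p = 0.00234) and -0.62 ± 0.21 in wild-type cells (adjusted p = 0.016), the second of which was lost without wild-type HSC replicate 1. Itgav read 7.59, 8.60, 7.61 and 7.66 in Mll-AF9 GMP against 6.67, 6.43, 6.67 and 6.41 in Mll-AF9 CMP, and 8.94, 7.67, 7.53, 7.96 and 7.82 in wild-type GMP against 6.76, 7.12, 6.76, 6.60 and 6.46 in wild-type CMP. The GMP minus CMP difference of Itgav was 1.32 ± 0.29 (Mll-AF9, adjusted p = 0.000601) and 1.24 ± 0.26 (wild type, adjusted p = 0.000244). Against HSC, Itgav was lower in CMP by call in Mll-AF9 (-1.35 ± 0.28, adjusted p = 0.000254) and wild-type cells (-1.19 ± 0.26, adjusted p = 0.000527). With the mean of all probe sets of a gene, the calls of Itgav in wild-type CMP against HSC and of Itgb5 in Mll-AF9 GMP against CMP were lost. Itgb3, which pairs with Itgav, was called in none of these comparisons.

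Of the immunoglobulin-type molecules, Alcam, whose protein binds CD6 and itself, had the widest range of the 36 genes over wild-type populations (3.95). No replicate of GMP or CMP exceeded 5.52, against 8.51, 9.54, 7.93, 8.57 and 7.69 in Mll-AF9 HSC and 9.08, 7.68, 8.43, 8.27 and 7.74 in wild-type HSC. Against HSC, wild-type CMP were at least 12.3-fold lower (difference -3.95 ± 0.44, adjusted p = 2.29e-09). The other differences were -3.89 ± 0.46 in Mll-AF9 CMP, -3.34 ± 0.46 in Mll-AF9 GMP and -3.25 ± 0.44 in wild-type GMP (adjusted p = 2.34e-08, 2.13e-07 and 9.65e-08). In GMP the size and the call depend on the probe set: another Alcam probe set gave -0.38 in Mll-AF9 and -0.43 in wild-type cells (neither called), and a further one -0.64 (not called) and -1.40 (called). In CMP the other Alcam probe sets were called lower too. F11r, the junctional adhesion molecule A, was called lower in the same 4 comparisons, at levels near background in GMP and CMP (group means of 4.48 to 4.64, against 6.00 in Mll-AF9 and 5.90 in wild-type HSC). The other F11r probe set was below background in HSC (4.32 in Mll-AF9 and 4.29 in wild type). It was no lower in GMP (4.39 and 4.70).

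Icam1, a receptor for LFA-1, was low in CMP. It read 5.34, 5.13, 5.44 and 4.51 in Mll-AF9 CMP against 6.85, 6.58, 6.90, 7.36 and 6.89 in Mll-AF9 HSC, and 5.06, 5.53, 4.70, 5.01 and 5.67 in wild-type CMP against 8.50, 7.31, 7.16, 7.11 and 7.33 in wild-type HSC. The CMP level was 3.50-fold lower in Mll-AF9 (-1.81 ± 0.28, adjusted p = 4.37e-06) and 4.90-fold lower in wild-type cells (-2.29 ± 0.27, adjusted p = 7.54e-09). Icam1 in GMP was lower than in HSC as well (-1.03 ± 0.28 in Mll-AF9 and -1.38 ± 0.27 in wild-type cells). Icam4, known in humans as a red cell blood group antigen, ran the other way. It read 7.37, 7.03, 7.07 and 7.31 in Mll-AF9 CMP against 5.49, 3.91, 4.24, 4.47 and 5.19 in Mll-AF9 HSC, and 7.62, 7.19, 7.07, 7.14 and 7.56 in wild-type CMP against 4.47, 5.16, 4.98, 4.48 and 5.99 in wild-type HSC. CMP did not overlap HSC, where 3 of 5 Mll-AF9 and 2 of 5 wild-type replicates were below background, so no fold is given. The fitted CMP minus HSC difference was 2.54 ± 0.37 in Mll-AF9 (adjusted p = 1.15e-06) and 2.30 ± 0.35 in wild-type cells (adjusted p = 1.71e-06), and the GMP minus CMP differences were -2.54 and -2.07. Vcam1 was called only in Mll-AF9 cells, where GMP (6.59, 6.32, 5.58 and 6.42) were at least 3.06-fold higher than CMP (2.68, 4.14, 3.72 and 2.64), with a difference of 2.93 ± 0.88 (adjusted p = 0.0122). Wild-type GMP read 4.14, 6.82, 6.64, 6.17 and 5.94 and wild-type CMP 3.43, 5.04, 4.40, 3.27 and 5.11, and the difference of the genotype effect on Vcam1 between GMP and CMP was not called (1.24 ± 1.18). Icam2 was called higher in Mll-AF9 GMP than CMP (1.07 ± 0.31, adjusted p = 0.00979). Its wild-type means ran the same way (8.59 in GMP and 7.91 in CMP) but were not called. With the first CMP run alone, the Icam2 call was lost, as were both Itgb7 calls, Itgb1 in wild-type CMP against HSC and Itga6 in wild-type GMP against CMP.

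Cd44 fell most in GMP against HSC after Alcam. It read 6.19, 7.23, 6.89 and 7.09 in Mll-AF9 GMP against 9.23, 9.10, 8.82, 8.89 and 8.56 in Mll-AF9 HSC, and 7.61, 6.55, 6.60, 6.96 and 7.11 in wild-type GMP against 10.36, 9.53, 10.05, 10.26 and 9.88 in wild-type HSC. The GMP level was 4.20-fold lower in Mll-AF9 (-2.07 ± 0.24, adjusted p = 6e-09) and 8.29-fold lower in wild-type cells (-3.05 ± 0.23, adjusted p = 5.37e-14). Against CMP the differences were -2.57 ± 0.26 and -2.50 ± 0.23. Other Cd44 probe sets disagreed, and with the mean of all of them the Mll-AF9 call against HSC was lost (-0.15, limma adjusted p = 0.547). The first gave 0.62 in Mll-AF9 and -0.66 in wild-type GMP against HSC (not called). The second gave 1.05 and 0.77 (both called higher), with HSC means near background (4.25 and 4.63). The fall against CMP also depends on the probe set. The first averaged 8.96 in GMP and 8.81 in CMP of Mll-AF9 cells, and 8.26 and 9.02 in wild-type cells. The second averaged 5.30 and 5.36, and 5.40 and 5.36. Cd47 read 11.32, 11.39, 11.41 and 11.33 in Mll-AF9 GMP and 11.37, 11.04, 11.59 and 11.30 in Mll-AF9 CMP, against 11.22, 10.57, 10.92, 10.59 and 10.31 in Mll-AF9 HSC. From this brightest probe set it was called higher in Mll-AF9 GMP (0.64 ± 0.18, adjusted p = 0.00535) and CMP (0.61 ± 0.18, adjusted p = 0.0119) than in HSC, but the CMP call was lost without CMP replicate 3, and other Cd47 probe sets pointed the other way: with the mean of all of them the differences were -0.56 and -0.29. The direction of Cd47 thus depends on the probe set.

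**Figure D2:**
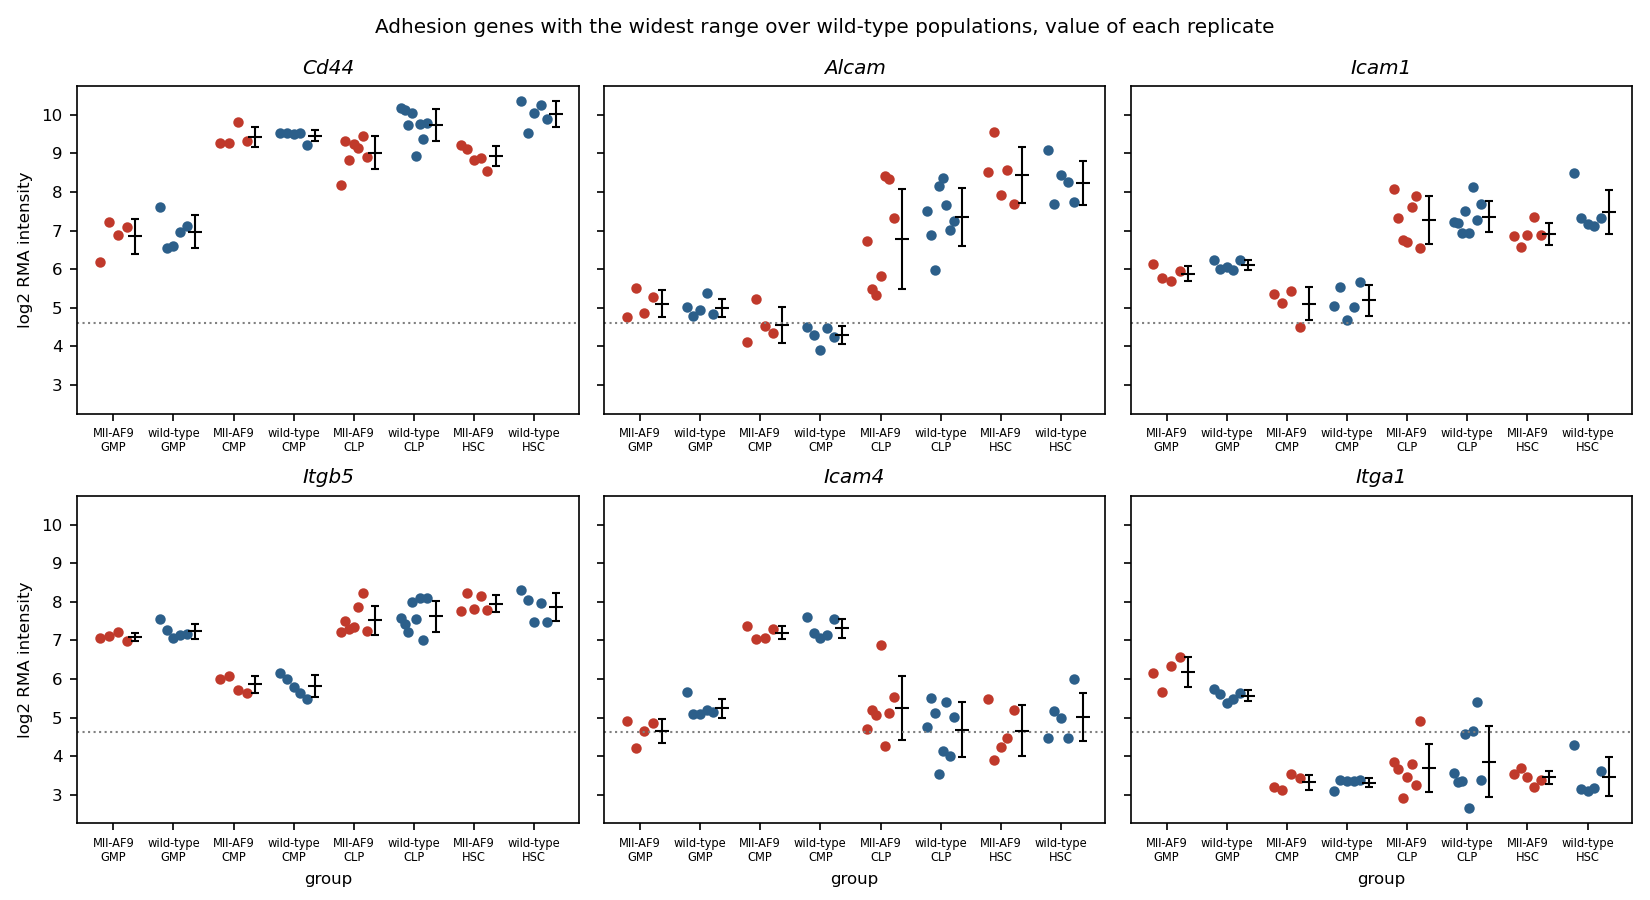
Level (log2 RMA intensity) in each replicate of the 6 genes with the widest range over wild-type populations, with Mll-AF9 in red and wild type in blue, bars at the mean ± SD and a dotted line at background. Alcam is high in HSC, Icam4 in CMP and Itga1 in GMP.

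Few adhesion genes were called between CLP and HSC. In Mll-AF9 cells 2 genes were called higher and 1 lower in CLP than in HSC (2.69% and 1.04% of all genes), and in wild-type cells limma called none (0.264% and 0.055% of all genes; 2 higher and 1 lower at an unadjusted p below 0.05, which 9.58% of all genes passed). Itgal rose in Mll-AF9 CLP, with a lowest, median and highest value of 6.31, 7.59 and 8.46, against 6.15, 4.68, 4.96, 6.30 and 6.22 in Mll-AF9 HSC (1.84 ± 0.30, adjusted p = 0.000137). Its partner Itgb2 rose as well, with 6.47, 7.80 and 8.88 in CLP against 7.10, 6.02, 5.92, 6.03 and 6.87 in HSC (1.41 ± 0.39, adjusted p = 0.0294). Alcam fell, with 5.32, 6.74 and 8.41 in CLP against 8.51, 9.54, 7.93, 8.57 and 7.69 in HSC (-1.67 ± 0.40, adjusted p = 0.0126). Other Alcam probe sets differed less, with means of 5.63, 5.73 and 6.33 in Mll-AF9 CLP against 6.28, 6.19 and 7.01 in Mll-AF9 HSC. The Itgal groups did not overlap, while those of the other 2 genes did. Mll-AF9 CLP replicates 1 to 4 read 8.29, 8.88, 8.77 and 7.80 for Itgb2 and 6.74, 5.48, 5.32 and 5.82 for Alcam, and replicates 5 to 7 read 6.93, 6.47 and 7.49 for Itgb2 and 8.41, 8.34 and 7.34 for Alcam. Replicates 1 to 4 also had the higher neutrophil markers, with means of 7.38 to 10.51, against 6.12 to 6.45 in replicates 5 to 7, and the part of these markers was not tested. The Itgb2 call was lost without CLP replicate 1, 2 or 3 or HSC replicate 2, 3 or 4, and the Alcam call without HSC replicate 2. In wild-type CLP the lowest, median and highest values were 7.32, 7.78 and 9.19 for Itgal and 6.71, 7.04 and 9.56 for Itgb2, with the highest of both in replicate 7.

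The main question of the series was what differs between Mll-AF9 and wild-type cells of 1 population. None of the 36 genes was called by limma in any of the 4 populations, where few genes were called at all: 0.17% higher and 0.0934% lower in GMP, 0.242% higher and 0.176% lower in CMP, 0.203% higher and 0.143% lower in CLP, and 0.022% higher and 0.0275% lower in HSC. At an unadjusted p below 0.05, 3 were higher and 2 lower in GMP and 1 was higher and 3 lower in CMP, while CLP had 3 higher and 1 lower and HSC 0 higher and 2 lower. Over all genes 9.63%, 6.75%, 9.29% and 6.38% passed that level. The median difference of the 36 genes was -0.01 in GMP (-0.02 over all genes), -0.01 in CMP (0.00 over all genes), 0.02 in CLP (0.06) and 0.09 in HSC (0.01). The test of the difference between populations in the genotype effect also called none of the 36 in the 6 pairs of populations. Over all genes, 0.0275% were higher and 0.0165% lower for GMP minus HSC, 0.11% and 0.033% for CLP minus HSC, 0.0385% and 0.0275% for CLP minus GMP, and 0.022% and 0.044% for CLP minus CMP, with 0% for CMP minus HSC and GMP minus CMP. At an unadjusted p below 0.05 between 0 and 4 of the 36 passed in a direction. In both directions together, 7.88% of all genes passed for GMP minus HSC, 2.91% for CMP minus HSC, 9.6% for CLP minus HSC, 1.84% for GMP minus CMP, 10.1% for CLP minus GMP and 4.21% for CLP minus CMP.

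**Figure D3:**
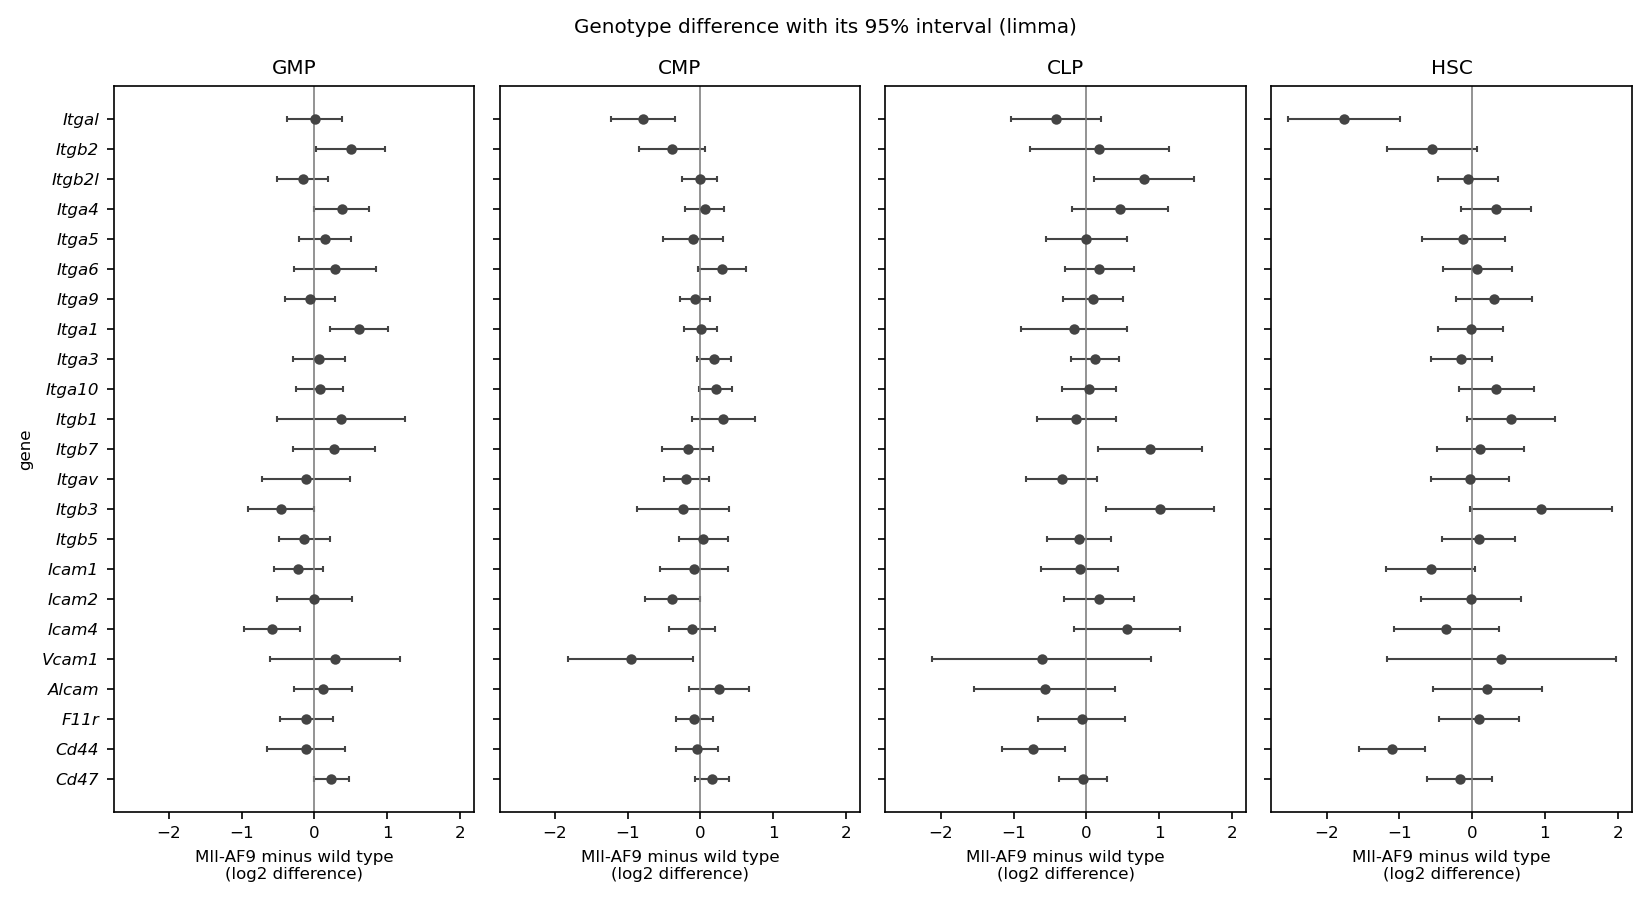
Mll-AF9 minus wild-type difference (log2) with its 95% interval for the 23 adhesion genes above background in at least 1 group, with a panel for each population. Itgal and Cd44 in HSC lie farthest below 0, at -1.77 and -1.10, and no gene passes the adjusted threshold.

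The largest differences were in HSC, where Itgal and Cd44 were lower in every Mll-AF9 replicate than in any wild-type one. Itgal read 6.15, 4.68, 4.96, 6.30 and 6.22 in Mll-AF9 HSC and 7.40, 7.40, 7.21, 6.86 and 8.25 in wild-type HSC (-1.77 ± 0.36, adjusted p = 0.116). Cd44 read 9.23, 9.10, 8.82, 8.89 and 8.56 in Mll-AF9 HSC and 10.36, 9.53, 10.05, 10.26 and 9.88 in wild-type HSC (-1.10 ± 0.21, adjusted p = 0.0901). On the brightest probe set of each gene, no other of the 36 had non-overlapping groups in HSC, where the share over all genes was 0.704% higher and 0.522% lower. Both genes were called in the model of all 8 groups (adjusted p = 0.00245 for Itgal and 0.00943 for Cd44). Neither was called with the mean of the Y-linked genes as a covariate (-1.79, adjusted p = 0.355, and -1.15, adjusted p = 0.254). Wild-type HSC replicates 3, 4 and 5, with no Y-linked signal, read 7.21, 6.86 and 8.25 for Itgal and 10.05, 10.26 and 9.88 for Cd44, above all Mll-AF9 values. The first of those other Cd44 probe sets gave -0.58 ± 0.26 (adjusted p = 0.814), and the mean of all Itgal probe sets gave -0.97. Single lymphoid and myeloid markers were lower as well, none of them called. Il7r averaged 3.47 in Mll-AF9 and 5.05 in wild-type HSC (-1.59, adjusted p = 0.0684), Ighm differed by -2.69 (adjusted p = 0.0901), Klrd1 by -1.40 and Csf1r by -1.92. These were the genes lower at an unadjusted p below 0.05 in lists of 5 CLP, 5 B cell, 10 T and NK cell and 9 monocyte and macrophage markers, 1 in each. The CLP list averaged 5.80 to 7.43 in Mll-AF9 HSC and 6.68 to 7.23 in wild-type HSC, the B cell list 5.09 to 6.51 and 5.91 to 6.36, and the T and NK cell list 4.06 to 4.42 and 4.19 to 4.41. The monocyte and macrophage list averaged 3.94 to 5.11 and 4.29 to 5.22. The median difference was -0.60 in the CLP list, but 0.11 in the B cell list. It was 0.03 in both the T and NK cell list and the monocyte and macrophage list. The part of these markers in the Itgal and Cd44 differences was not tested. Itgb2 read 7.10, 6.02, 5.92, 6.03 and 6.87 in Mll-AF9 HSC and 7.00, 6.98, 7.00, 6.36 and 7.39 in wild-type HSC, and overlapped. The other largest differences in HSC were -0.57 ± 0.29 for Icam1, 0.95 ± 0.46 for Itgb3, 0.53 ± 0.29 for Itgb1 and 0.40 ± 0.74 for Vcam1. For Vcam1 the difference turned to -0.34 without Mll-AF9 replicate 2.

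**Figure D4:**
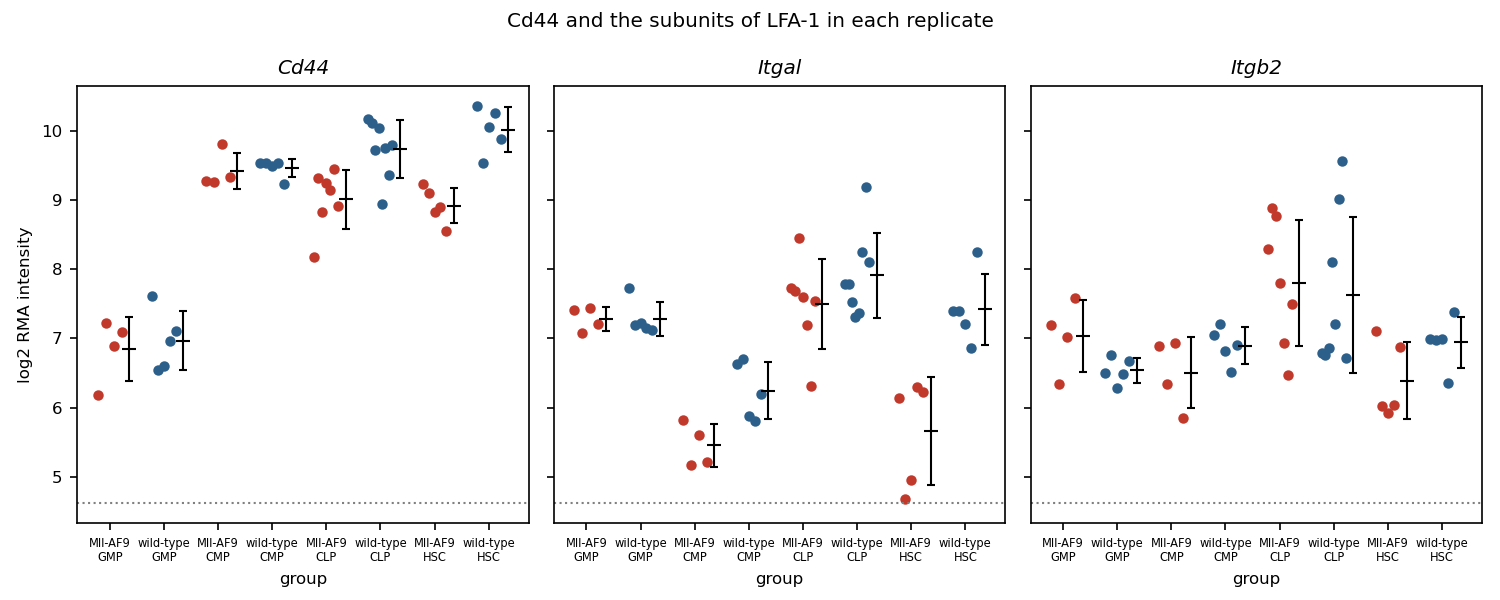
Level (log2 RMA intensity) of Cd44, Itgal and Itgb2 in each replicate of the 8 groups, Mll-AF9 in red and wild type in blue, with the mean ± SD and a dotted line at background. In HSC the Mll-AF9 and wild-type replicates do not overlap for Cd44 and Itgal and overlap for Itgb2.

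In CMP Itgal was again lower in Mll-AF9 cells, where 5.82, 5.18, 5.60 and 5.22 stood against 6.63, 6.71, 5.88, 5.81 and 6.20 in wild-type cells, so that the groups overlapped by 1 Mll-AF9 value (-0.79 ± 0.20, adjusted p = 0.163). With every run fitted and the replicate as a random effect it was called (-0.80 ± 0.17, adjusted p = 0.021). Among myeloid markers, Csf1r was called lower in Mll-AF9 CMP (6.54, against 7.78 in wild-type CMP, by -1.25, limma adjusted p = 0.00723). Fcer1a of the mast cell and basophil list was called higher (4.69, against 3.15, by 1.54, limma adjusted p = 0.0143). In the list of Csf1r, Cx3cr1 was higher but not called (0.52, limma adjusted p = 0.341). The neutrophil list of 7 had 2 genes lower at an unadjusted p below 0.05 and averaged 3.87 to 6.59 in Mll-AF9 CMP and 5.07 to 7.29 in wild-type CMP, while the monocyte and macrophage list averaged 4.28 to 4.36 and 4.27 to 4.52. Their part in the Itgal difference was not tested. In GMP Itgal averaged 7.28 in Mll-AF9 and 7.28 in wild-type cells. The difference of the genotype effect on Itgal between GMP and HSC was 1.77 ± 0.47 (adjusted p = 0.204) and between CLP and HSC 1.35 ± 0.42 (adjusted p = 0.259). The other differences in CMP were -0.39 ± 0.21 for Itgb2, -0.39 ± 0.18 for Icam2, 0.31 for Itgb1, 0.30 for Itga6 and 0.21 for Itga10. Vcam1, chosen after its values were seen, was below background in both groups and differed by -0.96 ± 0.40 (adjusted p = 0.667). It was called when the replicate number was used as a block (-0.74 ± 0.10, adjusted p = 0.0103).

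In GMP Itga1 read 6.16, 5.66, 6.34 and 6.57 in Mll-AF9 and 5.74, 5.61, 5.39, 5.48 and 5.63 in wild-type cells, with 1 Mll-AF9 replicate among the wild-type values (0.61 ± 0.19, adjusted p = 0.283). Icam4 read 4.91, 4.22, 4.64 and 4.86 in Mll-AF9 and 5.66, 5.09, 5.10, 5.20 and 5.15 in wild-type cells without overlap (-0.58 ± 0.18, adjusted p = 0.286). The megakaryocyte and platelet marker list did not overlap either, at 4.60 to 5.12 in Mll-AF9 GMP and 5.25 to 5.75 in wild-type GMP. Of its 7 genes, 3 were lower at an unadjusted p below 0.05 and none was called. The erythroid factor Gata1 differed by -0.50 (not called). It was the 1 gene lower at an unadjusted p below 0.05 among the 5 of the CMP list, whose median difference was -0.08. The part of these markers in the Icam4 and Itgb3 differences was not tested. In GMP 2.22% of all genes were higher and 2.12% lower without overlap. On the brightest probe set of each gene, besides Icam4 among the 36 this held only for Itgam (higher, 0.54 ± 0.13, adjusted p = 0.131, below background). Another Cd44 probe set was higher without overlap (lowest 8.92 in Mll-AF9, highest 8.62 in wild-type GMP). So were other Cd47 probe sets (9.22 against 9.07, and 9.70 against 9.55). Another Itgb5 probe set was lower (highest 5.21 in Mll-AF9, lowest 5.42 in wild-type GMP). The share over all probe sets was not computed. The other differences in GMP were 0.50 ± 0.22 for Itgb2, 0.37 ± 0.18 for Itga4, -0.47 ± 0.21 for Itgb3 and -0.22 ± 0.16 for Icam1. In CMP and CLP none of the 36 had groups that did not overlap on the brightest probe set. Over all genes 1.28% were higher and 1.4% lower without overlap in CMP, and 0.165% and 0.0879% in CLP. Another Itga4 probe set was lower in Mll-AF9 CMP without overlap (highest 6.03, against a lowest of 6.06 in wild-type CMP).

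In CLP the largest differences were in Itgb3, Itgb7 and Itgb2l, all higher in Mll-AF9 cells by 0.80 to 1.01, and in Cd44, which was lower. Itgb3, a chain of the vitronectin receptor, had a lowest, median and highest value of 5.76, 7.13 and 8.47 in Mll-AF9 CLP and 4.92, 5.81 and 7.19 in wild-type CLP (1.01 ± 0.36, adjusted p = 0.362). Itgb7 had 7.43, 7.82 and 8.40 in Mll-AF9 CLP and 6.17, 6.63 and 8.77 in wild-type CLP (0.87 ± 0.34, adjusted p = 0.430). Itgb2l, a gene related in sequence to Itgb2, had 4.50, 5.30 and 7.04 in Mll-AF9 CLP and 4.30, 4.54 and 5.31 in wild-type CLP (0.80 ± 0.33, adjusted p = 0.461). Cd44 had 8.18, 9.14 and 9.44 in Mll-AF9 CLP and 8.94, 9.78 and 10.17 in wild-type CLP (-0.73 ± 0.21, adjusted p = 0.214). Another Cd44 probe set averaged 8.46 in Mll-AF9 and 8.88 in wild-type CLP. A further one, near background, ran the other way (4.63 and 4.53). All 4 genes overlapped between the genotypes. After Cd44, the largest differences below 0 were those of Vcam1 (-0.61 ± 0.72) and Alcam (-0.57 ± 0.46).

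The 2 wild-type CLP replicates that stood apart carried the highest wild-type Itgb7 values (8.12 and 8.77) and Itgb3 values (6.68 and 7.19). Without them, a choice made after seeing the data, Itgb7 was called higher in Mll-AF9 CLP (1.36 ± 0.21, adjusted p = 0.00548), and its difference of effect from CMP was called (1.53 ± 0.34, adjusted p = 0.0456). Vcam1 turned to 0.41 without them, since those replicates read 7.52 and 9.28. On its brightest probe set, Cd44 was called lower with array weights (-0.79, adjusted p = 0.0353) and in the model of all 8 groups (-0.73, adjusted p = 0.0309). Within Mll-AF9 CLP, replicates 1 to 4 had the higher neutrophil markers. Their CMP-list markers, which are largely erythroid, averaged 7.42 to 9.20, against 6.32 to 7.36 in replicates 5 to 7. In wild-type CLP the neutrophil markers ranged from 3.96 to 9.79 and the CMP markers from 6.29 to 8.18. Itgb3 read 7.13, 7.28, 8.47 and 7.38 in Mll-AF9 CLP replicates 1 to 4, and 5.76, 6.49 and 6.50 in replicates 5 to 7. Those first 4 had Itgb2l at 6.34, 7.04, 5.30 and 5.70 and Itga4 at 10.42, 10.42, 10.95 and 10.11, and the other 3 had 4.53, 4.56 and 4.50 for Itgb2l and 8.86, 8.84 and 9.14 for Itga4. The part of these markers in the differences was not tested.

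**Figure D5:**
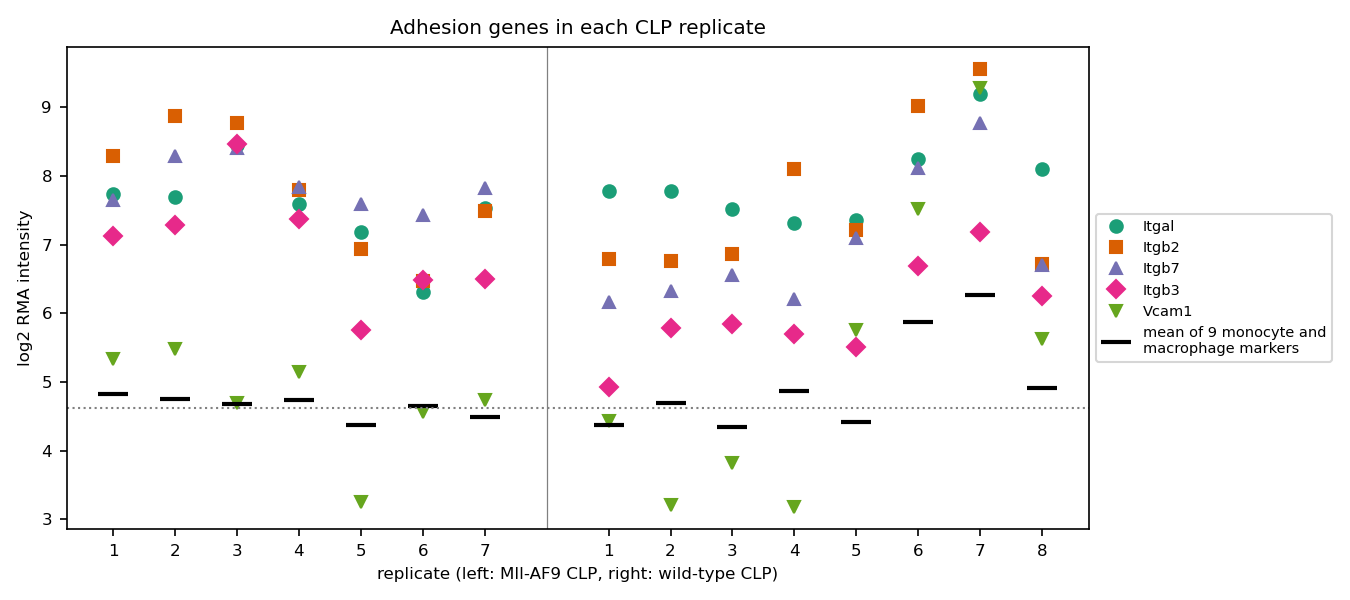
Level (log2 RMA intensity) of Itgal, Itgb2, Itgb7, Itgb3 and Vcam1 in each CLP replicate, with the mean of 9 monocyte and macrophage markers as a black bar and background as a dotted line; Mll-AF9 replicates are on the left and wild-type ones on the right. All 5 genes and the marker mean are highest among wild-type replicates in replicates 6 and 7.

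The partners of these receptors gave few calls between the genotypes. Limma called none of 28 genes of integrin activation and linkage to the cytoskeleton, or 23 of integrin signalling, in any population. The same held for 28 extracellular matrix ligands and 14 tetraspanins and other membrane partners. At an unadjusted p below 0.05 none of these lists had more than 4 genes in a population. The tetraspanin list had 1 higher and 3 lower of its 14 in GMP, where 9.63% of all genes passed. The activation list had 1 higher and 3 lower in CMP (6.75% of all genes), and 3 higher and 1 lower in CLP (9.29%). None passed in the activation list in GMP, the signalling list in CLP or the ligand list in HSC. These shares were not tested. Of 17 counter-receptors and linkers of Cd44, Cd47 and the Icams, 1 was called. It was Tjp1, which encodes the tight junction scaffold ZO-1 that binds junctional adhesion molecules, and it was higher in Mll-AF9 CMP (8.64) than in wild-type CMP (7.41), by 1.23 ± 0.14 (adjusted p = 0.000923). It was not called in CLP (1.47, adjusted p = 0.223), in HSC (1.88, adjusted p = 0.119) or in GMP (adjusted p = 0.0572), where it was below background in both genotypes, at 4.59 and 3.42. The median differences of the 5 lists lay between -0.09 and 0.21, against -0.02 to 0.06 over all genes.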

How the data were processed

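Probe-set intensities were deposited by the authors on a linear scale after RMA, per the submitters' processing notes. The sources used here give neither the RMA version nor which arrays were normalised together. Cells were sorted from marrow, RNA was extracted with a pico-pure kit and amplified in 2 cycles, per the labels' protocols. Log2 was taken here. The 2 runs of 8 CMP replicates were averaged, which left 43 replicates. Of 45101 probe sets, 64 were controls, 34945 had 1 gene in the platform annotation and 10092 several or none; symbols were updated from the RefSeq gene table. The brightest probe set by its mean over all arrays stood for a gene (18193 genes). The number of arrays limits the precision. All sample columns were used.

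The test was limma 3.58.1 under R 4.3.3 (lmFit, eBayes with a trend), with a separate fit of each population for the genotype comparisons, and with populations and differences of effect in 1 model of 8 groups, without a block, and p-values were Benjamini-Hochberg adjusted over all genes. The code was tested on simulated data. Named genes were, per genotype comparison, the 3 higher and 3 lower largest differences whose brighter group was above background, per wild-type population comparison the 4 higher and 4 lower called ones, their partner chains, and Itgb1, Itgb2, Itga4, Cd44, Cd47, Vcam1, Icam1 and Pecam1. The members and lists were chosen with earlier results of these data known. Alternatives were the probe set, filter, variance trend, normalisation, array weights, samples in the fit, replicate block, Y-linked and 3′ minus 5′ covariates, CMP runs and leaving out each replicate. Same-numbered replicates correlated at -0.29 to 0.19 and were not paired.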

Additional observations from a re-analysis of the deposited data

Results flagged for a closer look

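Of 163 groups of 4 to 8 replicates examined for genes above background, 16 had a highest or lowest replicate far from the others. Chance gives about 1 in 20. In Mll-AF9 GMP replicate 2 was highest for Itga4 (9.67, next 9.05) and Itgav (8.60, next 7.66), and replicate 4 lowest for Itga9 (4.30, next 4.86). Replicate 1 of wild-type GMP had the lowest Itgb1 (4.73, next 7.03) and the highest Icam4 (5.66, next 5.20) and Itgal (7.72, next 7.22). Replicate 3 of wild-type GMP had the highest Cd47 (11.40, next 11.09). Cd44 was highest in Mll-AF9 CMP replicate 3 (9.82, next 9.33) and lowest in wild-type CMP replicate 5 (9.23, next 9.50). In CLP, Mll-AF9 replicate 3 was highest for Itga3 (5.67, next 5.15), Mll-AF9 replicate 5 lowest for Vcam1 (3.25, next 4.56) and wild-type replicate 5 highest for Itga10 (5.23, next 4.66). In HSC, Mll-AF9 replicate 2 was highest for Itgb3 (7.54, next 6.10), Mll-AF9 replicate 3 lowest for Itgav (7.39, next 7.98), wild-type replicate 1 highest for Icam1 (8.50, next 7.33) and wild-type replicate 2 lowest for Itga6 (7.88, next 8.32).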

How the results depend on the processing

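Of 878 recomputed counts of called genes, 841 stayed within 1.5 times the main count and 37 did not; of 1859 recomputed single-gene values, 1752 kept their direction and call, 94 lost the call, 8 gained one and 5 reversed. The causes were not tested. The genotype counts of 0 in GMP held in every alternative run. In CMP 1 gene was lower with the replicate number as a block (Vcam1) and 1 with every run as a random effect (Itgal); the block gave 0 in GMP, CLP and HSC. In CLP 1 was higher and 1 lower with array weights, 1 lower in the model of all 8 groups and 1 higher without wild-type CLP replicates 6 and 7, which also gave 1 higher in the difference of effect between CLP and CMP. In HSC 1 was lower with array weights and 2 in the model of 8 groups. In wild-type GMP against HSC the higher count was 8 with the mean of probe sets, 13 with every probe set, 10 with array weights, and 4 to 8 leaving out 1 replicate (8 without GMP replicate 3); in wild-type GMP against CMP it was 18 with array weights and 17 in a fit of the compared groups only. In Mll-AF9 CMP against HSC it was 4 with every probe set and 1 to 2 leaving out 1 replicate. In Mll-AF9 CLP against HSC the lower count was 3 with every probe set, the higher and lower counts were 1 and 0 with array weights and with the compared groups only, and they ranged from 1 to 4 and 0 to 2 leaving out 1 replicate. In Mll-AF9 GMP against CMP the lower count was 4 with the mean of probe sets, with every probe set and with the compared groups only, and the counts were 15 higher and 5 lower with array weights. Reversed were Vcam1 in CLP (0.41 without wild-type replicates 6 and 7), Alcam in CLP (0.081 with array weights), Vcam1 in HSC (-0.34 without Mll-AF9 replicate 2; -0.34 to 0.96 leaving out 1 replicate), and Cd47 in Mll-AF9 GMP and CMP against HSC with the mean of probe sets (-0.56 and -0.29). Dim genes were limited by their signal over background.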
